A study of Mus musculus with 18 samples.

Results

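Small nucleolar RNAs (snoRNAs) and small Cajal body RNAs were followed over 18 microarrays of mouse cells on the way from fibroblasts to induced pluripotent stem cells (iPSCs). They were taken as every probe set with a single gene symbol beginning with Snord, Snora or Scarna: 81 probe sets for 78 symbols, of 23521 single-symbol probe sets in the table. Of these, 47 were Snord (box C/D), 28 Snora (box H/ACA) and 6 Scarna (Cajal body) probe sets. The 2 Snora19 probe sets held identical values on all arrays, so 80 profiles were distinct. By the RefSeq table the RNAs measured 48 to 248 bases, with a median of 78.

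The time course compared mouse embryonic fibroblasts (MEFs) of a reprogrammable mouse that expressed OKSM (Oct4, Klf4, Sox2 and Myc) with AGi, which is ascorbic acid plus a GSK3 inhibitor, against such fibroblasts that expressed OKSM without AGi. These are called AGi cultures and OKSM cultures here, and each was sampled once on days 2, 4, 6, 8, 10 and 12. Single arrays held Thy1-positive cells sorted from OKSM-expressing fibroblasts on day 3, granulocyte-macrophage progenitors (GMPs), iPSCs made from fibroblasts with 4 days of AGi induction, iPSCs made from GMPs with 2 days of it, wild-type embryonic stem cells (ESCs), and reprogrammable MEFs that received no dox. All cells were of the strain labelled Black6-129X1/SvJ, and the time-course samples were bulk cultures, in which cells at different stages are mixed. Each condition had 1 array, so errors rest on the days, by how they or the arm difference across them varied. Nothing shows that the days were separate cultures.

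Box C/D snoRNAs guide ribose methylation and box H/ACA snoRNAs guide pseudouridylation of ribosomal RNA, while a few, such as U8 and U17, are needed to cut the ribosomal precursor. Small Cajal body RNAs guide the same changes on spliceosomal RNAs. Most mammalian members are cut out of the introns of host genes, many of which encode ribosomal or nucleolar proteins or are non-coding RNAs named Snhg, and only a few have promoters of their own. Ribosome production is high in proliferating and pluripotent cells.

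By position in RefSeq, 77 of the 81 members lay inside another gene, 71 of them inside exactly 1, and Snord13, Snord89, Snord118 and Scarna2 lay inside none. The table gives no strand, so a host is here a gene that holds the small RNA by position. Probe sets in an intron also read unspliced host RNA, and the arrays do not tell the mature small RNA from it. The total RNA came from a silica column kit, of the kind that holds RNAs this short poorly, and their recovery was not measured.

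The starts of 4 host genes are shown because their small RNAs are described below: Snhg12 holds 4 members, Rps12 holds the member with the largest AGi effect, and Cct6a and Kansl2 hold the members that fell furthest by day 8 among those inside a single host gene and past the test. Each line gives 50 bases before and 20 bases from the RefSeq start of the gene on (GRCm38.p6, 5′ to 3′ on the gene's strand). Capitals mark an unbroken run of 8 or more letters that are each C or T near the start. Such a pyrimidine run at the start of the transcript is a known feature of many host genes.
Snhg12, chr4:132308628-132308697, plus strand: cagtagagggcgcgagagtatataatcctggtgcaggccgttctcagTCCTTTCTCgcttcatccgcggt
Rps12, chr10:23787190-23787259, minus strand: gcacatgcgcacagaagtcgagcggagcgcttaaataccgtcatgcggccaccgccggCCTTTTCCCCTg
Cct6a, chr5:129787306-129787375, plus strand: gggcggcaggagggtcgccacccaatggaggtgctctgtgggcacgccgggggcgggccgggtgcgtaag
Kansl2, chr15:98534250-98534319, minus strand: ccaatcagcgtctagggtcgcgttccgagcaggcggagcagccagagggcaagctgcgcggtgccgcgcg
Runs were searched from 20 bases before to 20 bases after the start. Of 40 windows of 37 host genes, 9 (22.5%) held a C or T run on the gene's strand, against 5272 of 32851 windows of all genes (16.0%). On the other strand, where it reads as a run of A or G letters, the shares were 4 of 40 (10.0%) and 5806 of 32851 (17.7%). Snhg12 and Rps12 had a run, and Cct6a and Kansl2 had none of 8 or more letters in this window. These windows are a description of sequence and were not tied to the levels.

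Median levels per array over all probe sets were 6.32 to 6.46 (log2). The marker genes went with the labels: the 9 pluripotency markers averaged 10.70 in ESCs, against 6.24 in MEFs, the 10 fibroblast markers 7.71 in ESCs, against 10.36 in MEFs, and the 7 markers of myeloid progenitors 12.30 in GMPs, against 6.33 in MEFs. The 18 hybridisation control probe sets, which read RNA added after labelling, were higher in AGi than OKSM arrays by 0.17 ± 0.07 (log2, SD over 6 days). They also moved between days 6 and 8, and both shifts are set beside the results below, which ran the same way.

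To describe what the members had in common, the median deviation of all 81 from their own means over the 18 arrays was taken per array. It is called the shared shift. In AGi cultures the shared shift was −0.03 on day 2, 0.40 on day 4, 0.67 on day 6, 0.42 on day 8, 0.22 on day 10 and 0.22 on day 12 (log2). In OKSM cultures it was −0.51, −0.09, 0.06, −0.18, −0.38 and −0.29 on the same days. Both arms thus had their lowest shift on day 2 and their highest on day 6, and AGi cultures lay above OKSM cultures on every day. On day 6 of the AGi cultures, 78 of the 81 members were above their own mean. The day 2 shift of the AGi cultures lay above that of MEFs without dox (−0.33), and that of the OKSM cultures below it.

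**Figure D1:**
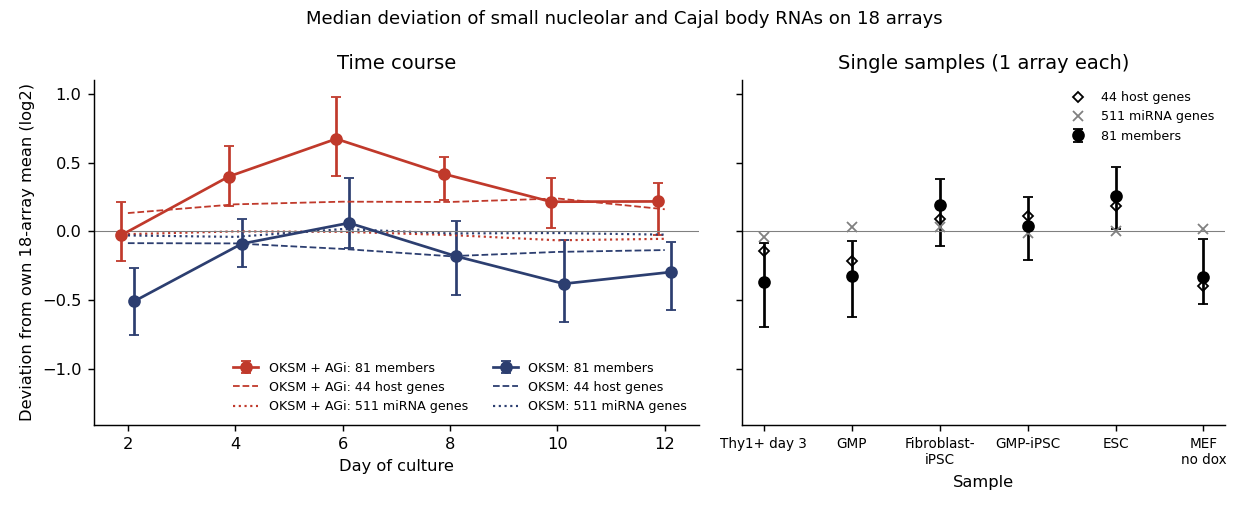
Median deviation from the 18-array mean (log2) by day of culture for AGi (red) and OKSM (blue) cultures at left, and for the 6 single samples at right. Points are medians over 81 members with bars from the first to the third quartile. Dashed lines and diamonds are the 44 host genes, and dotted lines and crosses the 511 probe sets of miRNA genes. The members peak on day 6 in both arms, at 0.67 with AGi and 0.06 without, while the medians over all 511 miRNA probe sets stay near 0. Over the 153 of these that entered the tests below, the median change from day 6 to day 8 was −0.23 in AGi and −0.13 in OKSM cultures. It was −0.28 and −0.29 over the 69 tested members.

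The difference of the shared shift between AGi and OKSM cultures averaged 0.55 ± 0.06 (log2, SD over 6 days), with single days between 0.48 and 0.61. It was 0.54 ± 0.05 for Snord, 0.63 ± 0.07 for Snora and 0.34 ± 0.12 for Scarna members. The hybridisation controls differed by 0.04 to 0.23 on single days, so every day's shift of the members was larger than the controls' on any day. Another class of short RNAs on these arrays was that of miRNA genes, with 511 probe sets for 483 symbols. Over these probe sets the same difference was −0.01 ± 0.03 (median AGi effect −0.02 over the 153 that entered the tests below). Over all single-symbol probe sets it was 0.01 ± 0.02. Over the 44 host genes it was 0.32 ± 0.07. The shared shift accounted for 38.1% of the variance of the members about their means.

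Single members followed the shared course to different degrees. Across the 18 arrays, the correlation of a member with the median of the others had a median of 0.73, exceeded 0.5 for 60 members and 0.8 for 31 (a description over arrays that share the time course). Snora7a, inside Rpl32, had the highest value (0.96), followed by Snord49a (0.95), Snora21 (0.94) and Snord65 (0.94). It was below 0 for 5 members: Snord123 (−0.58), Snord23 (−0.34), Snord8 (−0.11), Snora47 (−0.07) and Snord71 (−0.06).

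The first question was how the members differed with AGi over the 6 days. A probe set entered the tests if 3 or more of the 12 arrays of the time course read it at or above their own median. This kept 69 of the 81 members (37 of 47 Snord, 26 of 28 Snora, 6 of 6 Scarna) among 14577 probe sets. With AGi, 53 of the 69 tested members rose and 0 fell (limma with day as a block, Benjamini-Hochberg over all probe sets, threshold 0.05; 55 higher and 2 lower at an unadjusted p under 0.05). Over all tested probe sets, 19.5% were called higher and 19.1% lower. The median AGi effect of the tested members was 0.54, against 0.0009 over all probe sets tested. By class, 27 of 37 Snord, 22 of 26 Snora and 4 of 6 Scarna members were called higher, with medians of 0.54, 0.73 and 0.24.

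Without regard to the test, 53 of the 69 were higher with AGi on all 6 days, against 18.0% of all probe sets tested. For 15 of the 69 all 6 AGi arrays lay above all 6 OKSM arrays, against 6.02% of all. The filter can be passed through AGi arrays alone, which favours such members. Snora41 (6.46 to 7.12 in AGi cultures, 5.81 to 6.13 in OKSM cultures) passed it without any OKSM array. With the array median reached on all 12 arrays, 46 of 60 members were called higher and 0 lower. Of all 12269 probe sets kept by that filter, 2722 were called higher and 2484 lower. Of the 12 members below the filter, 4 were higher on all 6 days, with mean differences between −0.09 (Snord61) and 1.01 (Snord72). When the test asked whether the effect exceeded the mean difference of the hybridisation controls, 42 members were called higher, against 7.58% of all probe sets. When days were not paired, 34 were, against 14.7%. The markers of other cell types moved with the arms as well: 8 of 10 fibroblast markers were lower with AGi (list mean 8.23 to 10.02 in AGi cultures, 9.20 to 10.93 in OKSM cultures), 4 of 8 macrophage markers lower and 1 higher, 6 of 9 pluripotency markers higher (6.32 to 10.15, against 6.17 to 7.91) and 4 of 6 epithelial markers higher. Their part in the members' shift was not tested, and in bulk cultures fewer cells of a type cannot be told apart from less RNA per cell.

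The dimmer of the 2 Snora33 probe sets, from an H/ACA RNA inside the ribosomal protein gene Rps12, had the largest AGi effect. Its levels ran from 7.16 over a median of 8.26 to 8.53 in AGi cultures, and from 6.06 over 6.96 to 7.12 in OKSM cultures. The 2 sets of 6 arrays did not overlap. The effect was 1.28 ± 0.08 (log2, limma SE, n = 6 days, adjusted p = 0.0004). The brighter Snora33 probe set ran from 11.98 to 12.77 in AGi cultures and from 11.76 to 12.79 in OKSM cultures, with an effect of 0.11 ± 0.06 that was not called (adjusted p = 0.19). The 2 probe sets of this symbol thus disagreed.

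Snora74a, the U19 RNA inside Snhg4, ran from 7.99 over a median of 8.91 to 9.67 in AGi cultures, and from 7.002 over 7.56 to 8.36 in OKSM cultures. The highest OKSM arrays overlapped the lowest AGi array, but on each day the AGi culture was higher. The effect was 1.23 ± 0.15 (adjusted p = 0.0013).

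Snord43, a box C/D RNA inside the ribosomal protein gene Rpl3, ran from 8.04 over a median of 8.42 to 8.87 in AGi cultures, and from 7.10 over 7.22 to 7.42 in OKSM cultures. Its 6 AGi arrays all lay above the 6 OKSM arrays, which stayed near the level of MEFs (7.24). The effect was 1.21 ± 0.12 (adjusted p = 0.0007). Snord65, in the non-coding gene 2410006H16Rik, behaved alike, with 9.89 to 10.85 in AGi cultures and 9.03 to 9.61 in OKSM cultures (1.03 ± 0.09, adjusted p = 0.0006).

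The next largest effects were those of Snora78 (1.02 ± 0.09) and Snora34 (1.02 ± 0.09), both H/ACA RNAs. RNAs with a role in cutting the ribosomal precursor were among those called: Snora73a and Snora73b, the U17 RNAs inside Snhg3, by 0.83 ± 0.11 and 0.72 ± 0.08, Snord22, the U22 RNA inside Snhg1, by 0.72 ± 0.07, and Snord118, the U8 RNA, by 0.44 ± 0.12. The Snord118 call was lost if day 6 was left out (adjusted p = 0.061), if day 8 was (adjusted p = 0.062) and against the hybridisation controls (adjusted p = 0.11). Snord13, listed with these for a role in processing, was not called, and its levels are given below.

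The members with the lowest AGi effects were not called in either direction. Snord123, inside Snhg18, ran from 6.39 over a median of 6.77 to 6.89 in AGi cultures, and from 6.38 over 6.98 to 7.45 in OKSM cultures. Its arms coincided up to day 6 and the OKSM cultures were higher from day 8 on. The effect over all days was −0.24 ± 0.10 (adjusted p = 0.098). On days 8, 10 and 12 alone, Snord123 (−0.47, adjusted p = 0.023) and Snord71 (−0.44, adjusted p = 0.040) were called lower with AGi. These were 2 of 69 members, against 16.4% of all probe sets called lower, and 42 members were called higher, against 15.7%.

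Snord8 (−0.14 ± 0.06), Snora47 (−0.11 ± 0.09), Snora35 (−0.06 ± 0.07) and Snord23 (−0.01 ± 0.07) were likewise uncalled. Snora35 lies inside Htr2c, the gene of a serotonin receptor of the brain, and its levels stayed within 6.87 to 7.15 in AGi cultures and 7.02 to 7.23 in OKSM cultures. Snord23 stayed within 9.77 to 10.15 in AGi cultures and 9.90 to 10.05 in OKSM cultures. Both sets of arrays overlapped in each case.

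The Cajal body RNAs differed among themselves. Scarna2, which guides changes on the U2 spliceosomal RNA and lies in no host gene, ran from 10.12 over a median of 10.65 to 11.20 in AGi cultures, and from 9.79 over 10.13 to 10.78 in OKSM cultures. It rose by 0.48 ± 0.06 (adjusted p = 0.0018). Scarna8 rose by 0.43 ± 0.10, and the 2 Scarna17 probe sets by 0.24 ± 0.06 each. Scarna10 (0.21 ± 0.09, adjusted p = 0.097) and Scarna6 (0.13 ± 0.21, adjusted p = 0.65) were not called.

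**Figure D2:**
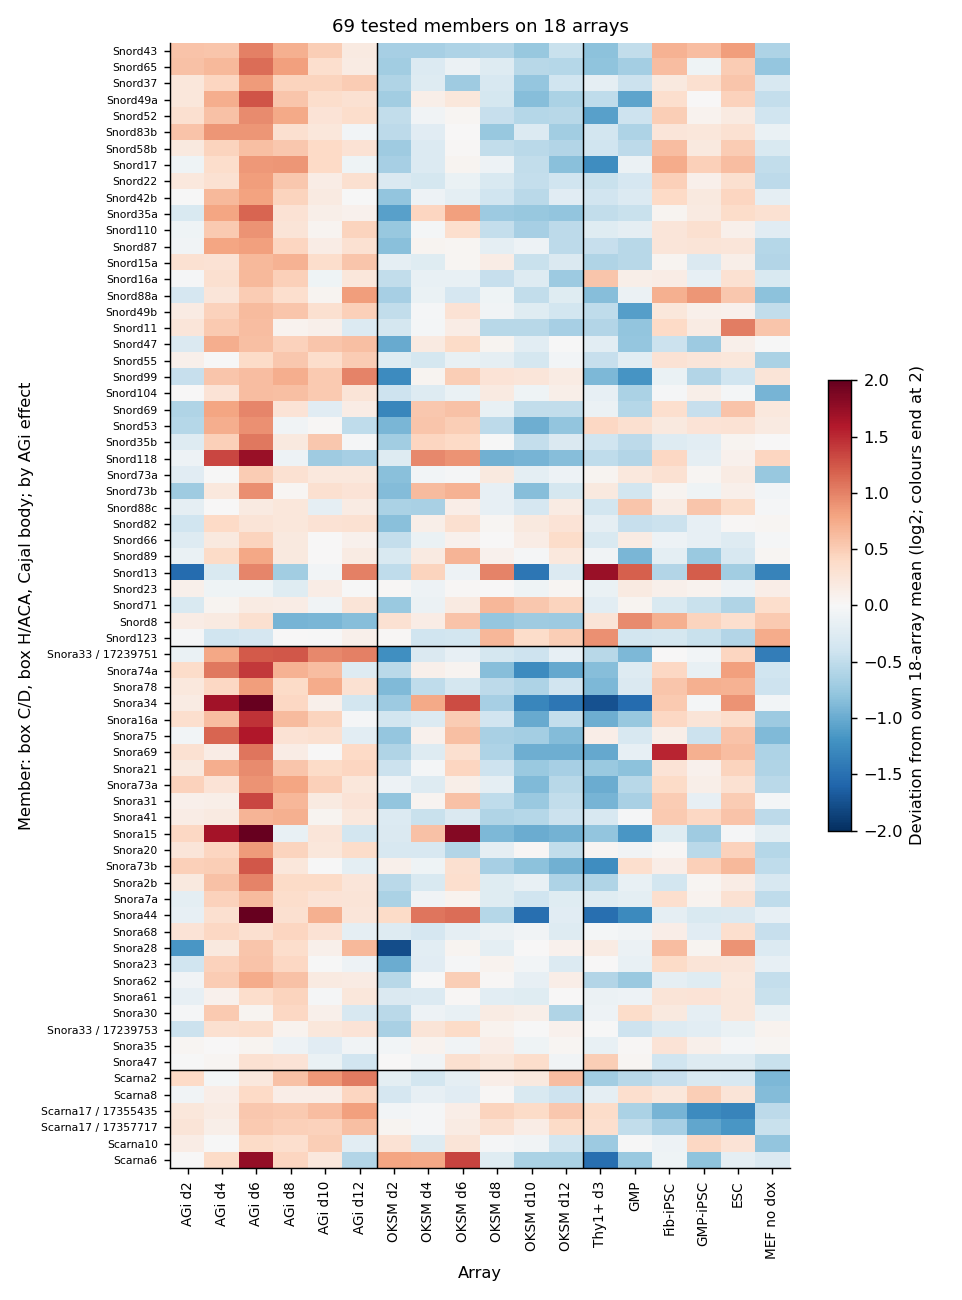
Deviation of each of the 69 tested members from its own mean over the 18 arrays (log2, red above and blue below, colours end at 2), with arrays in columns and members in rows by class and AGi effect; numbers after a slash are probe set identifiers. The AGi day 6 column is red for nearly all rows, with Snord123 and Snord23 below their own means there.

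The second comparison asked how members changed between days 6 and 8 in both arms. From day 2 to day 6 the shared shift was higher by 0.70 in AGi and 0.57 in OKSM cultures, and 61 of the 69 tested members were higher on day 6 than day 2 in both arms, against 28.4% of all probe sets tested. From day 6 to day 8 it was lower by similar amounts in the arms (−0.25 in AGi, −0.24 in OKSM cultures). Over the 44 host genes, which are those on the arrays of members inside exactly 1 gene, that difference was −0.0020 in AGi and −0.05 in OKSM cultures. Over all 511 probe sets of miRNA genes, of which 153 passed the filter described above, it was −0.02 and −0.03. The median of the changes of single probe sets, another measure, was −0.23 in AGi and −0.13 in OKSM cultures over the 153. Over the 69 tested members it was −0.28 and −0.29. The hybridisation controls were lower by 0.15 in both arms (AGi −0.15, OKSM −0.15), and their part in the members' change was not tested. The antigenomic background probe sets, which match no mouse gene, ran the other way (0.22 in AGi, 0.14 in OKSM cultures). Fibroblast markers were higher on day 8 (1.02 in AGi, 1.09 in OKSM cultures), as were macrophage markers (0.54 and 1.29). Their part in the members' change was not tested.

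On day 8 relative to day 6, 10 of the 69 tested members fell and 0 rose (limma fit with day and arm, adjusted p under 0.05; 28 lower and 2 higher at an unadjusted p under 0.05). Over all probe sets tested, 0.309% were called lower (45 of 14577) and 0.604% higher (88). The median change of the tested members was −0.24, against 0.01 over all. They were 6 Snord and 4 Snora members, and 0 of 6 Scarna members were called (1 lower and 1 higher at an unadjusted p under 0.05). Without regard to the test, 44 of 69 were lower on day 8 in both arms, against 32.8% of all probe sets. The other 35 probe sets called lower held 19 of protein-coding genes (0.140% of those tested), 12 of miRNA genes (7.84% of 153), 2 of lncRNA genes (0.380%), and those of Rny1 and n-R5s136. The 12 miRNA probe sets came from 6 symbols, whereas the 10 members called lower were of 10 symbols. Counted by probe set, the share called lower among miRNA genes was thus also above that of all probe sets, and 1 was called higher. Their median change was −0.17 over the 153 tested, beside −0.24 over the tested members, and whether the 2 classes differ was not tested.

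Snora15, an H/ACA RNA inside the chaperonin gene Cct6a, fell furthest. Its levels were 7.49, 8.74, 9.11, 6.92, 7.32 and 6.70 on days 2 to 12 in AGi cultures, and 6.78, 7.65, 8.90, 6.17, 6.09 and 6.12 in OKSM cultures. Both arms climbed to day 6 and lay below their day 4 level on every later day. Day 8 minus day 6 was −2.19 in AGi and −2.74 in OKSM cultures, and the mean change was −2.46 ± 0.22 (log2, limma SE, n = 2 arms, adjusted p = 0.0072).

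Snord118, the U8 RNA, which in frog oocytes is needed to make the large-subunit ribosomal RNAs, was at 6.76, 8.19, 8.58, 6.76, 6.15 and 6.19 on days 2 to 12 in AGi cultures, and at 6.61, 7.82, 7.76, 5.90, 5.92 and 6.01 in OKSM cultures. Days 4 and 6 stood above all other days in both arms. The change from day 6 to day 8 was −1.84 ± 0.20 (adjusted p = 0.011).

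Snora34, inside Kansl2, a subunit gene of a histone acetyltransferase complex, was at 9.31, 10.82, 11.22, 9.57, 9.25 and 8.78 on days 2 to 12 in AGi cultures, and at 8.42, 9.91, 10.46, 8.49, 7.85 and 7.70 in OKSM cultures. It too stood highest on days 4 and 6 and fell in both arms (−1.81 ± 0.15, adjusted p = 0.0052).

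Snord8, a box C/D RNA that lies by position inside both Chd8 and Gm26590, had another course. Its levels were 10.22, 10.25, 10.39, 9.14, 9.16 and 9.21 on days 2 to 12 in AGi cultures, and 10.38, 10.21, 10.64, 9.30, 9.36 and 9.33 in OKSM cultures. It was level over the early days, stepped down once and was level again, so that in both arms every late day lay below every early day. The change was −1.30 ± 0.10 (adjusted p = 0.0044). The single arrays lay near the early level, with 10.32 in Thy1-positive cells, 11.02 in GMPs, 10.77 and 10.51 in the iPSCs from fibroblasts and GMPs, 10.40 in ESCs and 10.59 in MEFs.

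The other members called lower were Snora75, the U23 RNA inside the nucleolin gene Ncl (−1.28 ± 0.13), Snord35a (−1.21 ± 0.18), Snora73b (−1.004 ± 0.15), Snord110, inside Nop56 (−0.73), Snord11, inside Nop58 (−0.63), and Snord89 (−0.59). Snord110, Snord11 and Snord89 had adjusted p between 0.039 and 0.043 and lost the call in several settings; leaving out day 2, 4 or 10 left 7, 8 or 7 members called (0.302%, 0.220% and 0.302% of all probe sets). Just outside the threshold were Snord53 (−0.99 ± 0.19, adjusted p = 0.062) and Snora69 (−0.93 ± 0.20, adjusted p = 0.089). Snora44 (−1.68 ± 0.62, adjusted p = 0.28) and Scarna6 (−1.47 ± 0.36, adjusted p = 0.13) had larger differences with more spread. The highest values were those of Snord123 (0.68 ± 0.18, adjusted p = 0.14) and Scarna2 (0.34 ± 0.11, adjusted p = 0.23).

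**Figure D3:**
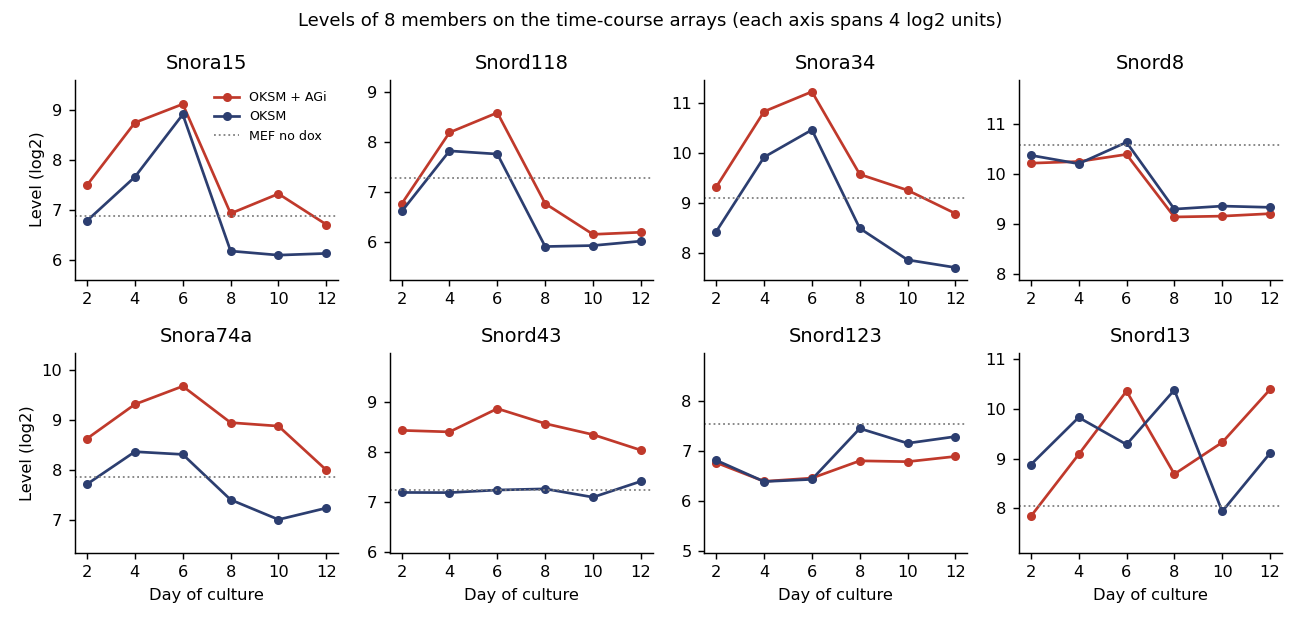
Levels (log2) of 8 members on days 2 to 12 in AGi (red) and OKSM (blue) cultures, 1 array per point, with the level of MEFs without dox as a dotted line. Snora15, Snord118, Snora34 and Snord8 are lower on day 8 than on day 6 in both arms, Snora74a and Snord43 are higher with AGi on all days, Snord123 is higher from day 8 on and Snord13 has no common course.

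By length, the median change was −0.17 for the 23 tested members under 70 bases, −0.24 for the 17 of 70 to 99 and −0.32 for the 29 of 100 or more, and 2, 3 and 5 of them were called. The correlation of length and change across the 69 members was −0.28, that of AGi effect and change −0.24, and that of mean level and change −0.03 (descriptions across members, which share arrays). The AGi effect had medians of 0.54, 0.44 and 0.72 in the 3 length classes.

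**Figure D4:**
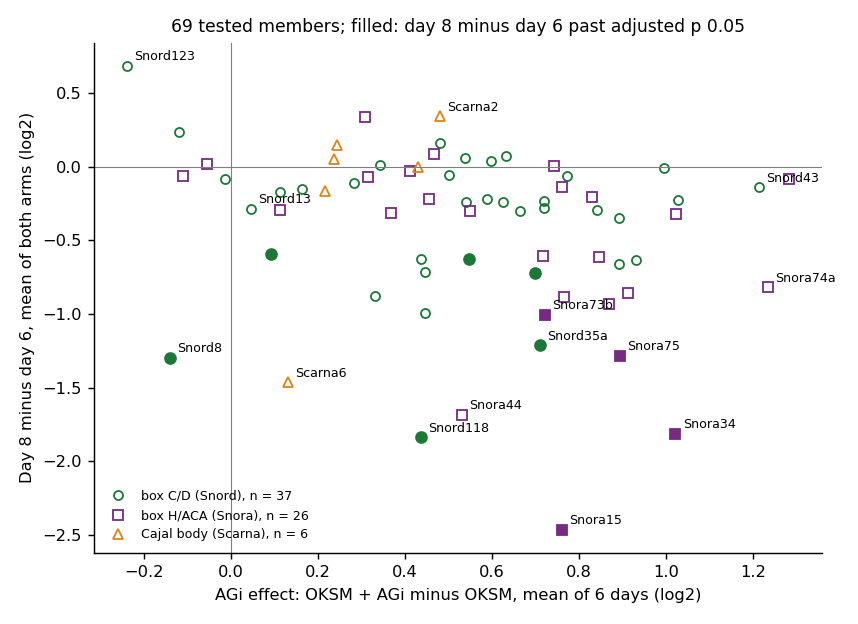
AGi effect (log2, mean over 6 days, horizontal) against the day 8 minus day 6 change (log2, mean of both arms, vertical) for the 69 tested members, circles box C/D, squares box H/ACA, triangles Cajal body, filled where the change passed the test. Most points lie right of 0 and below 0; Snora15, at 0.76 and −2.46, is lowest, and Snord8 fell without an AGi effect past the test.

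The third comparison set the late days (8, 10 and 12) against the early ones (2, 4 and 6). Over both arms 9 of the 69 tested members fell and 4 rose (limma, arm by period), against 9.58% of all probe sets called lower and 13.6% higher. Those that fell were Snora15 (−1.56 ± 0.35), Snord118 (−1.46 ± 0.30), Snora34 (−1.42 ± 0.39), Snord8 (−1.10 ± 0.07), Scarna6 (−1.09 ± 0.28), Snora73b (−0.83 ± 0.14), Snora74a (−0.76 ± 0.21), Snord11 (−0.51 ± 0.10) and Snord83b (−0.47). Those that rose were Scarna2 (0.60 ± 0.11), Snord123 (0.52 ± 0.10), Snord71 (0.46 ± 0.15) and 1 of the 2 Scarna17 probe sets (0.39 ± 0.08). Of the 9 and of the 10 called lower between days 6 and 8, 6 were called in both comparisons. These counts depended on single days. Without day 2, 27 members fell (8.83% of all probe sets called lower) and 3 rose (14.7% higher). Without day 4, 2 fell (3.16%) and 2 rose (5.94%), so the share that fell was that of all probe sets. Without day 6, 6 fell (7.80%) and 6 rose (11.1%), and the member median was 0.02, against −0.10 with all days. Without day 10, 6 fell (6.30%) and 3 rose (8.42%), and without day 12, 5 fell (5.22%) and 3 rose (9.23%). With a slope over day in place of the 2 periods, 2 members fell (12.6%) and 6 rose (15.1%).

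Whether the change from early to late days differed between AGi and OKSM cultures was tested as an interaction. It was called for 0 of the 69 members (limma; 1 lower and 0 higher at an unadjusted p under 0.05), against 0.322% of all probe sets called lower and 0.0617% higher. The median difference of the members was 0.05, against 0.01 over all probe sets.

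Members that depart from the shared shift were found by subtracting it from every array before the same fits. This moves all other probe sets too (84.1% of all tested were then called lower with AGi), so the adjusted p is lenient and the counts are a description. The shift is the median of these same members, so members on both sides of it are given by construction. The shares of all probe sets here and below were moved by the subtraction and are no baseline for the members. In the AGi effect, 18 members exceeded the shared shift and 15 stayed below it (1.47% of all probe sets called higher). The largest excesses were those of the dimmer Snora33 probe set (0.73), Snora74a (0.69), Snord43 (0.67), Snord65 (0.48), Snora78 (0.48) and Snora34 (0.47). The largest shortfalls were those of Snord123 (−0.79), Snord8 (−0.69), Snord71 (−0.67), Snora47 (−0.66), Snora35 (−0.60) and Snord23 (−0.56). The other shortfalls included 3 Scarna probe sets, Scarna10 (−0.33) and both of Scarna17 (−0.31 and −0.30).

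In the change from day 6 to day 8, 8 members lay below the shared shift (0.329% of all probe sets called lower) and 2 above it (8.49% called higher). Those below were Snora15 (−2.21), Snord118 (−1.59), Snora34 (−1.56), Snord8 (−1.05), Snora75 (−1.04), Snord35a (−0.96), Snora73b (−0.76) and Snord53 (−0.74). Those above were Snord123 (0.93) and Scarna2 (0.59). Between late and early days 9 lay below it (1.17% of all called lower) and 2 above (7.16% called higher), which were Scarna2 (0.69) and Snord71 (0.55). Snora44 (−0.87) and Snora75 (−0.65) were among those below here, although neither was called in the contrast of late with early days before the shift was removed.

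Snord13, the U13 RNA, which has a gene of its own, followed neither the shared shift nor the arms. Its correlation with the median of the other members over the 18 arrays was 0.05. Its levels were 7.84, 9.08, 10.35, 8.69, 9.32 and 10.38 on days 2 to 12 in AGi cultures, and 8.88, 9.82, 9.28, 10.37, 7.94 and 9.11 in OKSM cultures. The arms crossed several times and neither comparison called it (AGi effect 0.04 ± 0.44, adjusted p = 0.95). It was at 11.11 in Thy1-positive cells, 10.57 in GMPs, 8.80 and 10.60 in the iPSCs from fibroblasts and GMPs, 8.69 in ESCs and 8.05 in MEFs.

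The fourth comparison set the small RNAs beside the genes that hold them, in 60 pairs with 44 host genes on the arrays. With AGi, 35 of the 43 tested host genes were called higher and 1 lower (Zbed3, which holds Snora47), with a median of 0.30. Over all probe sets tested, 19.5% were called higher and 19.1% lower. On day 8 relative to day 6, 0 of the 43 host genes were called in either direction (limma, 1 lower and 2 higher at an unadjusted p under 0.05). Their median was −0.05. Over all probe sets only 0.309% were called lower and 0.604% higher, so the host count is near the share of all. Over the 50 pairs with both tested, the small RNA had the larger AGi effect in 37 and the lower day 8 minus day 6 value in 42. Across these pairs the correlation was 0.38 for the AGi effect and 0.20 for the change from day 6 to day 8 (descriptions, in which pairs share hosts).

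Several hosts held more than 1 member, and differences between members of a host were not tested. Snhg12 holds Snora16a, Snora44, Snora61 and Snord99. Snhg12 itself rose by 0.82 ± 0.10 with AGi, and its members had AGi effects of 0.91 (Snora16a), 0.53 (Snora44, not called, adjusted p = 0.27), 0.31 (Snora61) and 0.50 (Snord99). Between days 6 and 8 Snhg12 was at 0.12 ± 0.18 (adjusted p = 0.82), while the values were −0.86 for Snora16a, −1.68 for Snora44, −0.07 for Snora61 and −0.06 for Snord99, none of them called.

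Ncl, which encodes nucleolin and rose by 0.44 ± 0.07 with AGi, holds Snora75 and Snord82. Snora75 was at 9.23, 10.45, 10.90, 9.58, 9.61 and 9.08 on days 2 to 12 in AGi cultures, and at 8.51, 9.39, 9.90, 8.65, 8.62 and 8.42 in OKSM cultures. It rose with AGi by 0.89 and fell between days 6 and 8, whereas Snord82 had an AGi effect of 0.16 (adjusted p = 0.13) and a change of −0.15. The change of Ncl itself was −0.12 ± 0.13.

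Snhg3 holds Snora73a and Snora73b. Snora73a was at 9.68, 9.51, 10.13, 10.02, 9.70 and 9.45 on days 2 to 12 in AGi cultures, and at 9.13, 8.97, 9.35, 9.04, 8.34 and 8.68 in OKSM cultures. Snora73b was at 9.59, 9.61, 10.37, 9.35, 9.11 and 8.92 in AGi cultures, and at 9.22, 9.04, 9.45, 8.46, 8.31 and 8.17 in OKSM cultures. Between days 6 and 8, Snora73b fell and Snora73a had −0.20, while Snhg3 was at 0.19 ± 0.14 (adjusted p = 0.60). Both belong to 1 family of similar sequence, and signal that their probes share cannot be told apart here.

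For the members that fell furthest, the hosts had small values between days 6 and 8: Cct6a −0.13 ± 0.15, beside Snora15 at −2.46, and Kansl2 0.23 ± 0.12, beside Snora34 at −1.81. Kansl2 also holds Snora2b, whose change was −0.60 (adjusted p = 0.068). For Snord123 and its host Snhg18, the correlation over the 18 arrays was 0.87, and Snhg18 was higher on day 8 by 1.37 ± 0.27 (adjusted p = 0.073). Snord37, inside the elongation factor gene Eef2, rose with AGi by 0.996, with Eef2 at 0.08 ± 0.05 (adjusted p = 0.25).

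**Figure D5:**
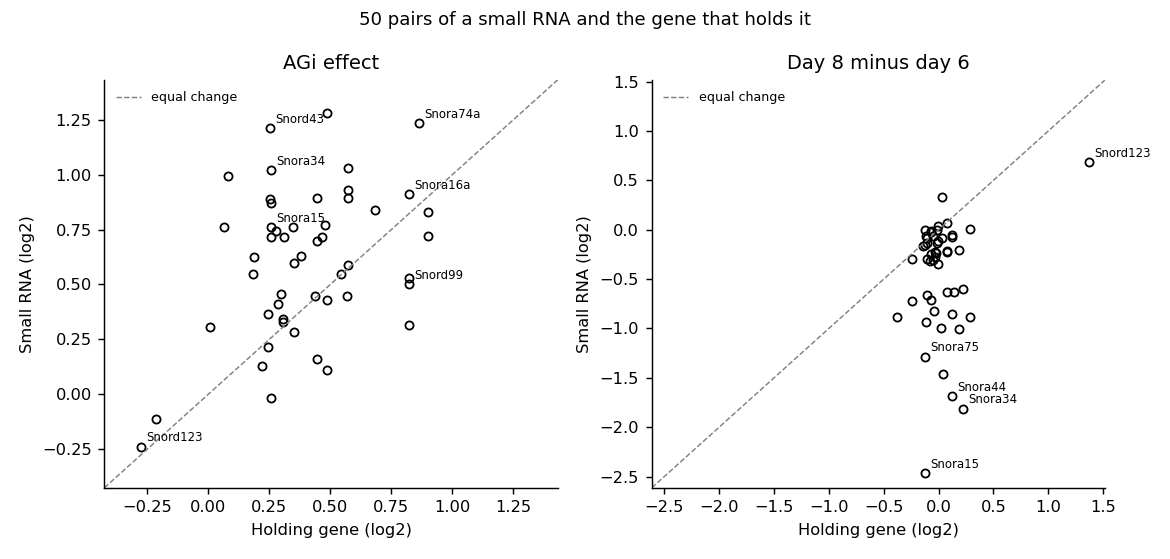
Small RNA (vertical) against the gene that holds it (horizontal) for 50 pairs with both tested, AGi effect at left and day 8 minus day 6 at right (log2); the dashed line marks equal change. The small RNA lies above the line in 37 pairs at left and below it in 42 at right, where host values cluster near 0.

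Other parts of the pathway were described by lists of genes, beside 19.5% of all probe sets called higher with AGi and 19.1% lower. Of 10 tested box C/D particle proteins, 9 rose and 0 fell with AGi (median 0.39), among them the core proteins Nop58 (0.55 ± 0.08) and Nop56 (0.45 ± 0.07) and the assembly factor Ruvbl2 (0.63 ± 0.08). Of 6 H/ACA proteins, 4 rose and 0 fell (median 0.55), among them the pseudouridine synthase gene Dkc1 (0.64 ± 0.07) and the assembly factor Shq1 (0.71 ± 0.07). Of 12 Cajal body and nucleolar proteins, 9 rose and 0 fell (median 0.46), including Wrap53 (0.56 ± 0.08), which binds small Cajal body RNAs. Of 17 genes listed as non-coding host genes, 15 rose and 0 fell (median 0.59), with Epb41l4aos (1.15 ± 0.09), Snhg3 (0.90 ± 0.08) and Zfas1 (0.83 ± 0.07) among them. The 15 include Rnu12 (0.21 ± 0.07), which is the U12 spliceosomal RNA and not a host gene. Between days 6 and 8, 0 of these 45 genes were called in either direction (limma, 1 lower and 1 higher at an unadjusted p under 0.05). Over all probe sets 0.309% were called lower and 0.604% higher, so this count is near the share of all. With AGi 0 of the 45 fell at an unadjusted p under 0.05.

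Of 10 tested non-coding RNAs of small or middle size that carry other symbols, 6 rose and 0 fell with AGi (median 0.24), and 2 fell between days 6 and 8. Over all probe sets, 19.5% rose and 19.1% fell with AGi, and 0.309% fell between days 6 and 8. Rnu12 was counted here as well as among the non-coding host genes above. The list holds 1 snoRNA, Rnu3a (U3, a box C/D RNA that takes part in cutting the ribosomal precursor), which rose by 0.79 ± 0.10 (adjusted p = 0.0018). The 2 that fell were Rny1, a Y RNA (−2.80 ± 0.28, adjusted p = 0.0072), with −2.37 in AGi and −3.23 in OKSM cultures, and n-R5s136, a gene of a small ribosomal RNA (−1.50 ± 0.21, adjusted p = 0.025). Rn7sk, an RNA that binds the elongation factor P-TEFb, had an AGi effect of −0.06 ± 0.06 and a change of 0.01 ± 0.10. Terc, the telomerase RNA, which is itself an H/ACA RNA, rose with AGi by 0.69 ± 0.09 and had a change of −0.20 ± 0.15 (adjusted p = 0.62).

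The single samples have 1 array each, so no test was possible and differences of at least 1 (log2) were counted. The shared shift was −0.36 in Thy1-positive cells, −0.32 in GMPs, 0.19 in iPSCs from fibroblasts, 0.04 in iPSCs from GMPs, 0.26 in ESCs and −0.33 in MEFs. The mean of the 3 pluripotent samples was thus 0.49 above MEFs, and it was 0.52 for the host genes.

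In the mean of the 3 pluripotent samples relative to MEFs, 11 of the 69 tested members were higher by at least 1 and 1 was lower, against 10.5% and 12.2% of all probe sets tested. The member medians were 0.52, against 0.02 over all. For 44 members all 3 pluripotent arrays lay above MEFs and for 12 all 3 lay below, against 41.8% and 39.5% of all probe sets tested. Snora69, inside the ribosomal protein gene Rpl39, was at 10.72 and 9.91 in iPSCs from fibroblasts and GMPs and 9.83 in ESCs, against 8.58 in MEFs. Snord88a was at 8.45, 8.62 and 8.28 in the same order, against 6.91 in MEFs, and Snord43 at 8.55, 8.47 and 8.69, against 7.24.

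The member lower by at least 1 was Snord123, at 6.43 and 6.35 in iPSCs from fibroblasts and GMPs and 6.20 in ESCs, against 7.53 in MEFs. It was at 7.70 in Thy1-positive cells and 6.42 in GMPs. Both Scarna17 probe sets were lower in the pluripotent samples (by means of −0.65 and −0.50), with the brighter one at 10.51, 10.14 and 10.02, against 10.73 in MEFs, although both were higher with AGi in the time course.

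Of the iPSCs relative to ESCs, those from fibroblasts had 0 of 69 members that differed by at least 1 in either direction (1.93% of all probe sets higher, 1.30% lower). Those from GMPs had 1 higher, Snord13 (1.91), and 3 lower, Snord69 (−1.03), Snora20 (−1.01) and Snora75 (−1.005), against 0.679% and 0.926% of all. The medians were −0.03 and −0.17.

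GMPs relative to MEFs had 2 members higher by at least 1, Snord13 (2.52) and Scarna8 (1.19), and 6 lower, against 9.40% and 12.7% of all probe sets. Among those lower were Snora34 (−1.49), Snord99 (−1.43) and Snord11 (−1.35). Thy1-positive cells relative to MEFs had 2 higher, Snord13 (3.06) and Snora75 (1.01), and 5 lower, against 3.94% and 3.07% of all. The 5 were Snora34 (−1.68), Snora44 (−1.35), Scarna6 (−1.22), Snord99 (−1.16) and Snord11 (−1.14). Snora34 was at 7.41 in Thy1-positive cells and 7.61 in GMPs, against 9.09 in MEFs, so its level in the sorted day 3 cells lay below all 12 time-course arrays.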

How the data were processed

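Total RNA was labelled with biotin and hybridised to 18 Affymetrix mouse gene arrays. The deposited values are log2 levels, 1 per probe set. Per the submitters' processing notes, the authors used RMA in Affymetrix Expression Console. Neither its settings nor a build or scan date is given in the sources used here, so no batch of arrays could be tested and no probe set coordinates are printed.

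Platform annotation symbols were brought up to date through RefSeq gene IDs (GRCm38.p6). All 81 members matched it. Left out were 46 probe sets with several symbols that name a member symbol, and 23 probe sets of 8 other snoRNA symbols. Hosts are genes that hold a member by position. Promoter windows are from RefSeq.

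Tests used limma 3.58.1 under R 4.3.3 (lmFit, eBayes, Benjamini-Hochberg over 14577 probe sets, adjusted p threshold 0.05). The AGi effect and the day 8 minus day 6 change used arm plus day as a block (5 residual degrees of freedom). The block rests on the labels, which give both arms the same days. Late against early days used arm by period (8 residual degrees of freedom). Single arrays were compared by size only. The shared shift and the departures are described where first used. In the fits with a day block, the p-values measure how far the difference between the arms varied over the days. A shift shared by both arms on a given day does not enter that error. In the late against early fit they measure the spread of days within a period and arm. Each spread may be technical.

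On simulated arrays with 200 changed of 14577 probe sets, the AGi fit recovered 59.8% of changes of 0.5 log2, 89.7% of 1 and 100% of 2. The day 8 minus day 6 fit recovered 17.5%, 66.7% and 94.6%, and the late against early fit 54.5%, 96.9% and 100%. The simulated noise was independent between probe sets around a flat mean, whereas the members moved together on the real arrays. In the data 19.5% of probe sets were called higher with AGi and 19.1% lower. The rates thus hold for the simulated setting only.

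Members and lists were chosen with earlier results of these data known. Named members were the highest and lowest of each contrast (8 each for day 8 minus day 6, otherwise 6 each), all Scarna members and a list of processing, imprinted and reference RNAs; others named, such as hosts and members just outside a threshold, were added to describe these. Alternatives changed the filter, the probe set rule, the normalization, the variance prior and the day term, or left out a day. Python 3.11.15 with matplotlib 3.10.9 drew the figures.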

Additional observations from a re-analysis of the deposited data

Results flagged for a closer look

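On day 2 both Snora33 probe sets lay far below the other days of their arm, measured by the gap to the next array over the whole range (Dixon's 95% value for 6 arrays). The dimmer probe set was at 7.16 in the AGi culture and at 6.06 in the OKSM culture, and the brighter one at 11.98 in the AGi culture. These were 3 of 36 series of 6 arrays examined, and chance marks about 1 series in 20. The series were those of the shared shift and of chosen members only, so the count does not hold for all members. Others had similar gaps on day 2. Snora28 was at 8.81 in the AGi and 8.20 in the OKSM culture, with next lowest levels of 10.08 and 9.76. Snord82 was at 11.44 and 11.00, with next lowest levels of 12.07 and 11.87. Day 2 also had the lowest shared shift of each arm.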

How the results depend on the processing

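Leaving out each day in turn gave 48 to 54 members called higher with AGi and 0 called lower, 7 to 11 called lower between days 6 and 8 and 0 called higher, 2 to 27 lower and 2 to 6 higher between early and late days, and 0 for the interaction. The mean AGi minus OKSM shared shift stayed between 0.53 and 0.56. Departures from the shared shift ranged from 16 to 19 higher and 14 to 17 lower for AGi, 0 to 3 higher and 7 to 11 lower for day 8 minus day 6, and 0 to 7 higher and 6 to 19 lower for late against early days. The day 8 minus day 6 contrast could not be fitted without day 6 or 8. The cause of these differences was not tested.

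Without the day term (no replicate block), 34 members were called higher with AGi (14.7% of all probe sets). On days 8, 10 and 12 alone, 2 were called lower (16.4%) and 42 higher (15.7%). With a slope over day as a number, 2 members fell (12.6%) and 6 rose (15.1%). For departures in day 8 minus day 6, the count above the shared shift was 4 with a trend in eBayes, 9 with the shift as a mean, 8 with it over tested members and 5 with C/D and H/ACA members apart. For late against early days it was 4 with no filter, 5 with the mean and 5 over tested members. The day 8 minus day 6 shared shift over both arms was −0.37 as a mean over members and −0.33 over tested members. Small uncalled AGi effects changed sign: with 1 day left out, Snord23 ran from −0.063 to 0.030, Snord13 from −0.22 to 0.39 and Scarna6 from −0.013 to 0.31, and on days 2, 4 and 6 alone the values were 0.022 for Snora47, 0.20 for Snord71, 0.049 for Snora35, −0.24 for Snord13 and −0.25 for Scarna6. The other 194 values of counts and medians kept their direction and size within the limits set. For single named members, 755 values over the settings kept their sign and their call or lack of one. A call was lost in 59, gained in 5, and the sign changed in 11.

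Limits: 1 array per arm and day, an unmeasured recovery of short RNAs, and hybridisation controls that moved the same way by a smaller amount. A change shared by both arms on 1 day cannot be told apart from the handling of that day's arrays. The smaller day 8 minus day 6 changes are near what 2 arrays a day can resolve.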
